A study of Rattus norvegicus with 4 samples.

Results

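The Slc25 genes encode the mitochondrial carriers, proteins of the inner mitochondrial membrane that exchange ADP for ATP and move phosphate, amino acids, carboxylates, cofactors and nucleotides between matrix and cytosol. They share a fold made of repeated membrane-spanning segments and differ in the substrate they bind, and a few act in peroxisomes or the outer mitochondrial membrane. Thyroid hormone is a known regulator of mitochondrial metabolism, and in the brain the carriers feed ATP synthesis, the malate-aspartate shuttle and glutamate metabolism. The roles named here are mostly known from human, mouse and yeast proteins. The members were all genes whose probe accession matched a rat RefSeq symbol starting with Slc25. Of 53 protein-coding Slc25 genes in the RefSeq table, 36 had a probe on the array, in all 54 probes, and 17 had none, among them Slc25a12 and Slc25a13, the aspartate-glutamate carriers. Members with a value were selected on brightness and not on any T3 ratio: a probe had to exceed its background clearly for T3 RNA, or for saline RNA, on 3 or more arrays, and the brightest such probe stood for its gene. This left 28 Slc25 genes among 9304 genes with a value. Of the 28, 27 were well above background in both channels on all 4 arrays, so they did not enter through 1 treatment. The 8 genes without a value were Slc25a2, Slc25a21, Slc25a30, Slc25a37, Slc25a41, Slc25a44, Slc25a47 and Slc25a54. Nearest to the limit, Slc25a29 was above background on 3 arrays in each channel, and Slc25a21, Slc25a30 and Slc25a47 were on 2 arrays in T3 and 1 in saline.

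The rats were 8 male Sprague Dawley animals, 7 weeks of age at the start and 10 weeks at collection. All of them, the controls included, drank water with 0.025% methimazole (MMI, which blocks thyroid hormone synthesis) over 22 days to make them hypothyroid. An injection on day 21 gave 4 rats triiodothyronine (T3, the active hormone; 25 µg per 100 g) and 4 rats saline, and hypothalamic blocks (bregma -2.12 to -4.52 mm) were taken 24 hours later. Each of 4 two-colour Agilent arrays compared total RNA of 1 T3 rat and 1 saline rat, the T3 sample being labelled with Cy5 on arrays 1 and 3 but with Cy3 on the other two, so the comparison was between treated and untreated hypothyroid rats with no euthyroid group in it.

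Over all spots, controls included, the arrays had median intensities from 106.5 to 132.5 (Cy3) and from 228.5 to 267 (Cy5), and the number of arrays limits the precision. Hr, whose gene thyroid hormone receptors bind, was higher after T3 (log2 ratio 1.18 ± 0.15, SD, n = 4 arrays; limma adjusted p = 0.0130). Of 10 markers of hypothalamic nuclei, 8 had a value and each of these was above background in every channel, Hcrt, Pmch and Pomc among them, while Nr5a1 and Fezf1 had none. A rat on array 3 and another on array 2 stood apart by a few markers of other tissue. On array 3 the T3 rat was high in 2 of the 5 measured choroid plexus markers, with ratios of 3.53 for Ttr and 2.70 for Sostdc1, while Folr1 was at 0.30, Otx2 at 0.52 and Calml4 at -0.29. The saline rat of array 3 was also high in Ttr (log2 level 10.03, against 7.04 to 8.15 in the other saline rats) but not in Sostdc1 (8.37). On array 2 the saline rat was high in 3 of the 8 measured blood and meningeal markers, with ratios of -4.25 for Hbb-b1, -3.25 for Hbb and -3.20 for Alas2, all genes of red blood cells. The meningeal genes Dcn, Lum, Col1a1 and Col1a2 lay between -0.11 and 0.25 there, and Igf2 was at -0.69. The part of either tissue in the carrier ratios was not tested, and the main values below are also given without these arrays. Across all genes, the ratios of arrays 1 and 3 (both with T3 in Cy5) had r = 0.42, those of arrays 2 and 4 (both with T3 in Cy3) r = 0.22, and the pairs of opposite orientation lay between -0.11 and 0.22.

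The upstream sequences are shown for the members with the largest mean ratios in each direction, Slc25a33 and Slc25a34, of which only Slc25a33 was called. Each line gives 250 bases before the RefSeq gene start in assembly GRCr8, from 5′ to 3′ in the direction of transcription. Slc25a33 lies at chr5:165502974-165503223 on the minus strand and Slc25a34 at chr5:159219893-159220142, also on the minus strand. Capitals mark TGACCT, which is the letters AGGTCA on the opposite strand, the core recognised by many nuclear receptors.
Slc25a33: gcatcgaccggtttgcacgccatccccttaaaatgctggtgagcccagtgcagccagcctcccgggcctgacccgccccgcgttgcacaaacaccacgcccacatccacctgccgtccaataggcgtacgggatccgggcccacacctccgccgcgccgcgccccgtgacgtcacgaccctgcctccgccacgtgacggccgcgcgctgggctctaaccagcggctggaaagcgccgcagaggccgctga
Slc25a34: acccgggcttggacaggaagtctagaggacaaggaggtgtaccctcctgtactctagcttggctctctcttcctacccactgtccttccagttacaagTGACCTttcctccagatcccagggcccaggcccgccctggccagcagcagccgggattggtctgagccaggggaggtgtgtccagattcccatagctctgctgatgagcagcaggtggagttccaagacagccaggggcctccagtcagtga
The Slc25a33 stretch had a GC content of 70.0% and 30 CpG dinucleotides, and that of Slc25a34 had 59.6% and 3. Of the 28 members, 25 had a promoter entry, with a median upstream GC content of 59.6%, against 51.2% for all 33469 entries. AGGTCA, searched on both strands from 250 bases before to 50 after the start, was in the entries of 4 of the 25 members (Slc25a16, Slc25a27, Slc25a34 and Slc25a39) and in 16.2% of all entries. In Slc25a34 it began at position -152 from the start, on the strand opposite to transcription. These matches describe letters in a window and not binding.

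After T3, 1 of the 28 carriers was called higher, none was called lower, and the family as a whole had no common direction. Slc25a33, which carries pyrimidine nucleotides into mitochondria, was 1.68-fold higher and was the only member past the threshold (limma with Benjamini-Hochberg adjustment over 23191 probes, adjusted p under 0.05). By the same rule, 0.15% of all genes were called higher and 0.0107% lower, and of all probes 0.0949% were called higher and 0.00431% lower. The mean log2 ratio was above 0 for 14 members and below 0 for the other 14, and the median was -0.0020 in the family and 0.0042 over all genes. With 1 array left out, the number above 0 ran from 11 (without array 3) to 16 and the family median from -0.027 to 0.015, and without array 2 they were 14 and 0.0092. The family's array medians were 0.00040, -0.064, 0.0013 and 0.014 on arrays 1 to 4. At an unadjusted limma p under 0.05, 4 members were higher (Slc25a33, Slc25a15, Slc25a42 and Slc25a5) and 3 lower (Slc25a34, Slc25a18 and Slc25a38), against 5.34% of all genes higher and 3.92% lower. The ratio was above 0 on all 4 arrays for 4 members and below 0 on all 4 for 5 members, or 14.3% and 17.9%, against 9.47% and 7.81% of all genes. A mean ratio beyond 0.2 in either direction was found for 5 members (17.9%) and for 10.6% of all genes. Replicate spread was somewhat smaller than usual, with a median SD of 0.13 in the family and 0.16 over all genes, and it ranged in the family from 0.030 for Slc25a42 to 0.34 for Slc25a32. In bulk tissue, fewer cells of a type and less RNA per cell cannot be told apart, and this touches every ratio below.

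**Figure D1:**
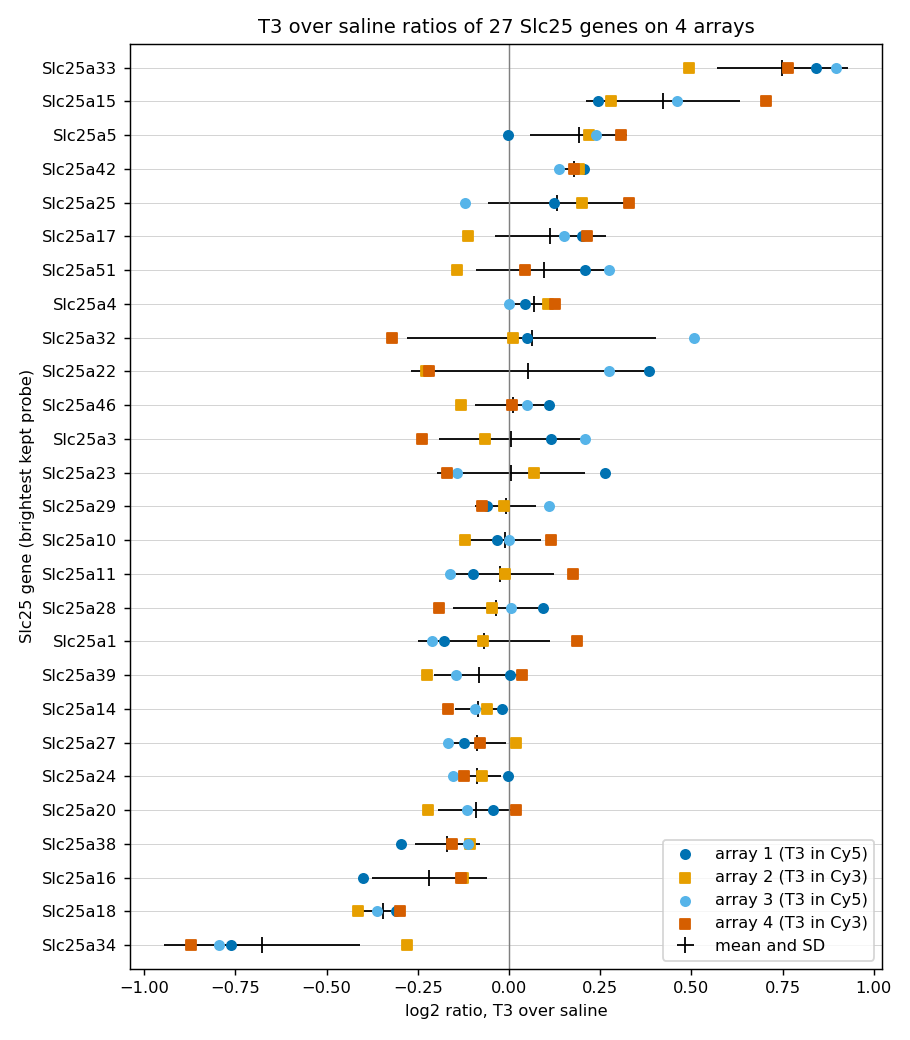
Log2 ratio of T3 over saline for 27 Slc25 genes on each of 4 arrays (x axis), with circles for arrays with T3 in Cy5 and squares for T3 in Cy3, and a cross with a line for the mean and SD. Slc25a33 lies to the right on all 4 arrays (0.49 to 0.90), Slc25a34 and Slc25a18 lie to the left on all 4, and most other genes straddle 0.

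**Figure D2:**
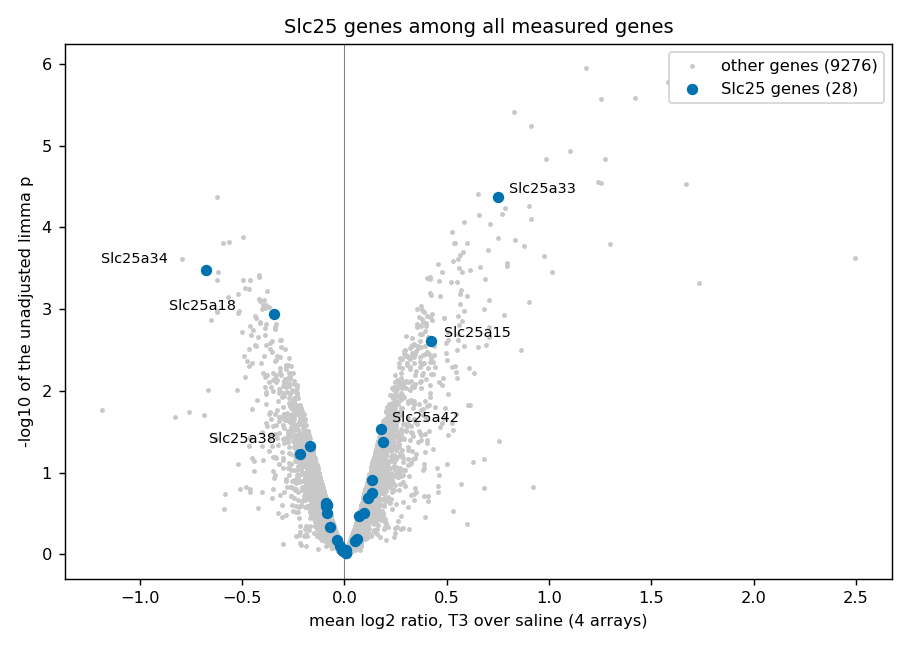
Mean log2 ratio of T3 over saline (x axis) against -log10 of the unadjusted limma p (y axis) for 28 Slc25 genes (large points) and the other genes with a value (small points). Slc25a33 is the family's only gene past the adjusted threshold, with the 14th smallest p of all genes, and most of the family sits near the centre.

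The carriers of cofactors and nucleotides held the one gene called. Of 7 measured members 6 had a mean above 0, with a median of 0.11, 1 passed the threshold and 2 had an unadjusted limma p under 0.05. Of all genes, 51.9% had a mean above 0, 0.15% were called higher and 5.34% were higher at that unadjusted p. Slc25a33 had normalized log2 levels of 10.78, 10.99, 10.63 and 11.14 in the saline rats of arrays 1 to 4 and of 11.62, 11.48, 11.53 and 11.90 in the T3 rats. Every T3 rat was above every saline rat, a separation found for 1.29% of genes. Its log2 ratios were 0.84, 0.49, 0.90 and 0.77, a mean of 0.75 ± 0.18 (SD, n = 4 arrays; 95% interval 0.55 to 0.95; limma adjusted p = 0.0426). The mean was 0.87 over the arrays with T3 in Cy5 and 0.63 over those with T3 in Cy3, so the direction did not depend on the dye. A different probe of the gene gave 0.90, 0.40, 0.79 and 1.03, with a mean of 0.78 ± 0.27 (limma adjusted p = 0.070). The call rested on all of arrays 1, 3 and 4: the limma adjusted p was 0.220 without array 1, 0.263 without array 3 and 0.227 without array 4, at means of 0.72, 0.70 and 0.74, and 0.0183 without array 2, at 0.84. The call was also lost when limma fitted a dye effect (adjusted p = 0.0526), with the scanner's processed signals (0.143), with eBayes set to trend and robust (0.830) and with median centring (1), at means of 0.70 to 0.79.

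Slc25a42, a carrier of coenzyme A, had the most even ratios of the family. They were 0.21, 0.19, 0.14 and 0.18, with a mean of 0.18 ± 0.03 (limma adjusted p = 0.543). In the authors' deposited table its mean was -0.0028. The 4 scanner ratios were all above 0, yet the saline levels of 11.23, 11.37, 11.22 and 11.45 overlapped the T3 levels of 11.44, 11.56, 11.35 and 11.63. Slc25a51 carries NAD into mitochondria, and its brightest probe gave 0.21, -0.14, 0.28 and 0.04, a mean of 0.10 ± 0.19. Its other kept probes had means of -0.02, 0.07 and 0.08, so its probes lay on both sides of 0. Slc25a17, a peroxisomal carrier of coenzyme A and related cofactors, was at 0.11 ± 0.15, and Slc25a32, linked to folate and FAD transport, was at 0.06 ± 0.34. The Slc25a32 ratio was 0.51 on array 3 and -0.32 on array 4, the widest range in the family. Slc25a16, a carrier linked to coenzyme A, was the one member of its group with a mean below 0. It had ratios of -0.40, -0.13 and -0.13 on arrays 1, 2 and 4, a mean of -0.22 ± 0.16 (n = 3; limma adjusted p = 0.640), and its array 3 spot was dropped as an outlier.

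**Figure D3:**
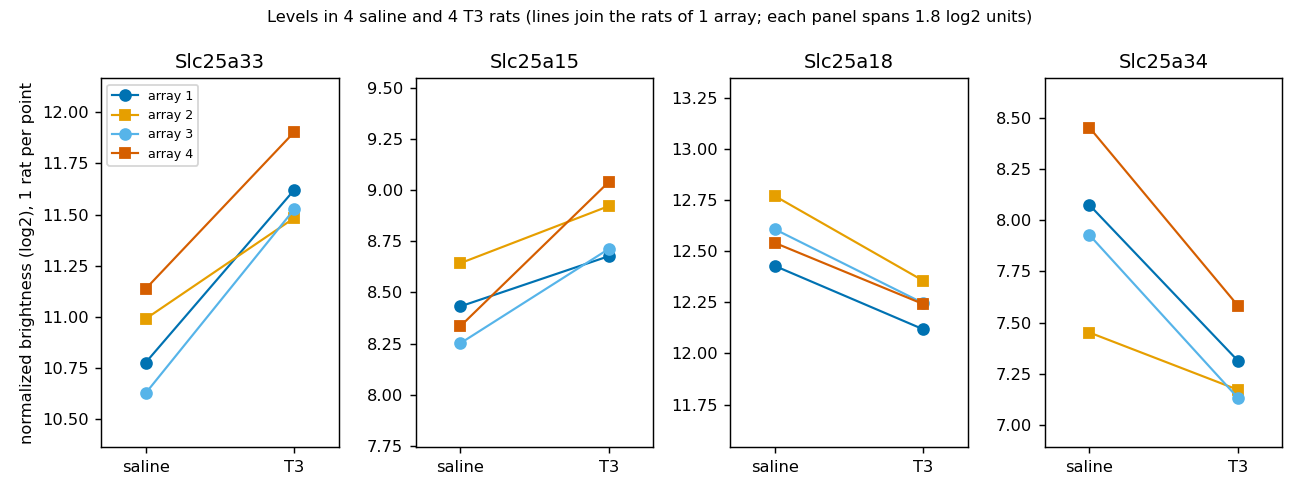
Normalized log2 brightness (y axis, each panel spanning 1.8 log2 units) of the 4 members with the smallest p in 4 saline and 4 T3 rats, 1 point per rat, with lines joining the rats of an array. The T3 rats lie above all saline rats for Slc25a33 and Slc25a15 and below all of them for Slc25a18, while for Slc25a34 the saline rat of array 2 (7.45) lies among the T3 rats.

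Among carriers of glutamate, dicarboxylates and citrate, 4 of 5 measured members had a mean below 0 (median -0.023). In limma 0 passed the threshold and 1 had an unadjusted p under 0.05. Of all genes, 4476 of 9304 had a mean below 0, 0.0107% were called lower and 3.92% were lower at that unadjusted p. The carrier under that p was Slc25a18, which takes glutamate into mitochondria with a proton and is known as abundant in astrocytes. Its log2 levels were 12.43, 12.77, 12.61 and 12.54 in the saline rats and 12.12, 12.36, 12.25 and 12.24 in the T3 rats. Every T3 rat was below every saline rat, a separation seen for 0.818% of genes. The ratios were -0.31, -0.41, -0.36 and -0.30, a mean of -0.35 ± 0.05 (95% interval -0.50 to -0.19; limma adjusted p = 0.155), and without arrays 2 and 3 in turn it was -0.32 and -0.34 (limma adjusted p = 0.250 and 0.567). A different probe gave -0.52, -0.12, -0.36 and -0.06, again below 0 on every array (mean -0.26; limma adjusted p = 0.52). The summed log2 level of 8 of 8 astrocyte markers, in which the brightest weigh most, was 17.05 to 17.19 in the saline rats and 16.83 to 17.04 in the T3 rats, with every marker above background. Marker by marker there was no common direction. Of these 8, 5 had a mean below 0 and 3 above, Gja1 at -0.62 ± 0.23 (limma adjusted p = 0.0934) and Fgfr3 at 0.34 ± 0.20 being the outermost, and none was called by limma. The astrocyte median was -0.11, -0.39, -0.19 and 0.13 on arrays 1 to 4, so on array 4 it lay above 0 while Slc25a18 was at -0.30. The part of astrocyte content in the Slc25a18 value was not tested.

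The second glutamate carrier, Slc25a22, did not share this pattern. Its ratios were 0.38, -0.23, 0.27 and -0.22 (mean 0.05 ± 0.32), so it was higher on both arrays with T3 in Cy5 and lower on both with T3 in Cy3. The signs of Slc25a3 and Slc25a28 ran the same way. In all, signs followed the dye orientation for 3 of the 27 members with 4 ratios, against 23.3% of all genes. When limma fitted a dye effect, its log2 estimate was 0.28 for Slc25a22, 0.16 for Slc25a3 and 0.085 for Slc25a28. These dye estimates were not themselves tested. The oxoglutarate-malate carrier Slc25a11, a component of the malate-aspartate shuttle, was at -0.02 ± 0.15. The dicarboxylate carrier Slc25a10 was at -0.01 ± 0.10, and the citrate carrier Slc25a1, which supplies citrate for lipid synthesis, at -0.07 ± 0.18. These 3 means were smaller than their SDs.

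Slc25a15, the exchanger of ornithine and citrulline that links the matrix and cytosolic steps of the urea cycle, had the second highest mean of the family. Its log2 levels were 8.43, 8.64, 8.25 and 8.33 in the saline rats and 8.68, 8.92, 8.71 and 9.04 in the T3 rats. The T3 rats were above all the saline rats, a separation found for 1.29% of genes. The nearest were 8.68 against 8.64, from rats of different arrays. The ratios were 0.25, 0.28, 0.46 and 0.70, a mean of 0.42 ± 0.21 or 1.34-fold (95% interval 0.20 to 0.64), which did not pass the threshold (limma adjusted p = 0.219). Without array 2 the mean was 0.47 (limma adjusted p = 0.206) and without array 3 it was 0.41 (limma adjusted p = 0.668). The other 3 measured carriers of amino acids and glutathione had means below 0, as had 4476 of all 9304 genes. The median of these 4 members, Slc25a15 included, was -0.046. Slc25a38, a glycine carrier needed for haem synthesis, had ratios of -0.30, -0.11, -0.11 and -0.16 (mean -0.17 ± 0.09; limma adjusted p = 0.603). Its saline levels of 10.95 to 11.33 overlapped its T3 levels of 10.84 to 11.17. Slc25a39, a carrier of glutathione, was at -0.08 ± 0.12. Slc25a29, a carrier of basic amino acids, had ratios of -0.06, -0.01, 0.11 and -0.07 (mean -0.01 ± 0.08), and its other probe had a mean of 0.01. On array 4 its brightest probe was at 6.51 in saline and 6.44 in T3, against 9.73 to 9.88 on the other arrays, and was not well above background there.

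Slc25a34 had the lowest mean of the family. It is a carrier with no settled substrate, and its nearest relative Slc25a35 had no probe. Its log2 levels were 8.07, 7.45, 7.93 and 8.45 in the saline rats and 7.31, 7.17, 7.13 and 7.58 in the T3 rats. The T3 rat was the lower one on each array, but the groups overlapped through the saline rat of array 2. The T3 levels were not far above the 6.51 and 6.44 of the Slc25a29 probe on array 4, which was not well above background. The Slc25a34 probe was well above background in both channels on all 4 arrays. The part of its low level in the ratios was not tested. The ratios were -0.76, -0.28, -0.80 and -0.87, a mean of -0.68 ± 0.27 or 0.626 times the saline level (95% interval -0.93 to -0.42), which did not pass the threshold (limma adjusted p = 0.0934). Without array 2 the mean was -0.81 and it passed (limma adjusted p = 0.0188), and without array 3 it was -0.64 (limma adjusted p = 0.433). Its size varied with the source of the values: the mean was -1.23 with the scanner's processed signals (limma adjusted p = 0.175) and -0.38 in the authors' deposited table (limma adjusted p = 0.899). The other member without a settled substrate, Slc25a46, lies in the outer membrane and is linked to mitochondrial fusion and fission. Its ratios were 0.11, -0.13, 0.05 and 0.01, with a mean of 0.01 ± 0.10.

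The carriers of ADP, ATP and phosphate, which serve oxidative phosphorylation directly, were close to 0. All 3 measured members had a mean above 0 (median 0.070), as had 51.9% of all genes. None passed the threshold in limma, and 0.15% of all genes were called higher. At an unadjusted limma p under 0.05, 5.34% of all genes were higher and so was 1 of the 3. That was Slc25a5, an ADP/ATP translocase, with ratios of -0.0019, 0.22, 0.24 and 0.31 (mean 0.19 ± 0.13; limma adjusted p = 0.589). Its 3 probes had means of 0.19, 0.12 and 0.11. RefSeq listed 9 pseudogenes of Slc25a5, 8 of Slc25a39, 2 of Slc25a3 and 1 each of Slc25a4, Slc25a15, Slc25a33 and Slc25a38. No probe was checked against them, so a share of the signal of these 7 genes from the copies cannot be told apart. Slc25a4, the translocase of heart, muscle and brain, had ratios of 0.04, 0.11, 0.0013 and 0.13, a mean of 0.07 ± 0.06 with a 95% interval of -0.09 to 0.23. The phosphate carrier Slc25a3 had ratios of 0.11, -0.07, 0.21 and -0.24 (mean 0.01 ± 0.20).

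The calcium-regulated exchangers of ATP-Mg and phosphate, which adjust the adenine nucleotide content of the matrix, had no shared direction (median 0.0053, 3 members). None was called by limma or had an unadjusted limma p under 0.05, against 5.34% of all genes higher and 3.92% lower at that p. Slc25a25 had ratios of 0.12, 0.20, -0.12 and 0.33 (mean 0.13 ± 0.19). Slc25a23 had 0.26, 0.07, -0.14 and -0.17 (mean 0.01 ± 0.20). Slc25a24 had -0.0023, -0.07, -0.15 and -0.12 (mean -0.09 ± 0.07), below 0 on every array by little. The relatives of the uncoupling proteins that are expressed in brain, Slc25a14 and Slc25a27, were at -0.09 ± 0.06 and -0.09 ± 0.08. Slc25a14 had ratios of -0.02, -0.06, -0.09 and -0.17. The carnitine-acylcarnitine carrier Slc25a20, which brings fatty acids in for oxidation, had ratios of -0.04, -0.22, -0.11 and 0.02 (mean -0.09 ± 0.10). The iron importer Slc25a28 (mitoferrin 2) had ratios of 0.09, -0.05, 0.01 and -0.19 (mean -0.03 ± 0.12). For all of these 7 genes the groups of rats overlapped, and the limma adjusted p ran from 0.804 to 0.998.

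**Figure D4:**
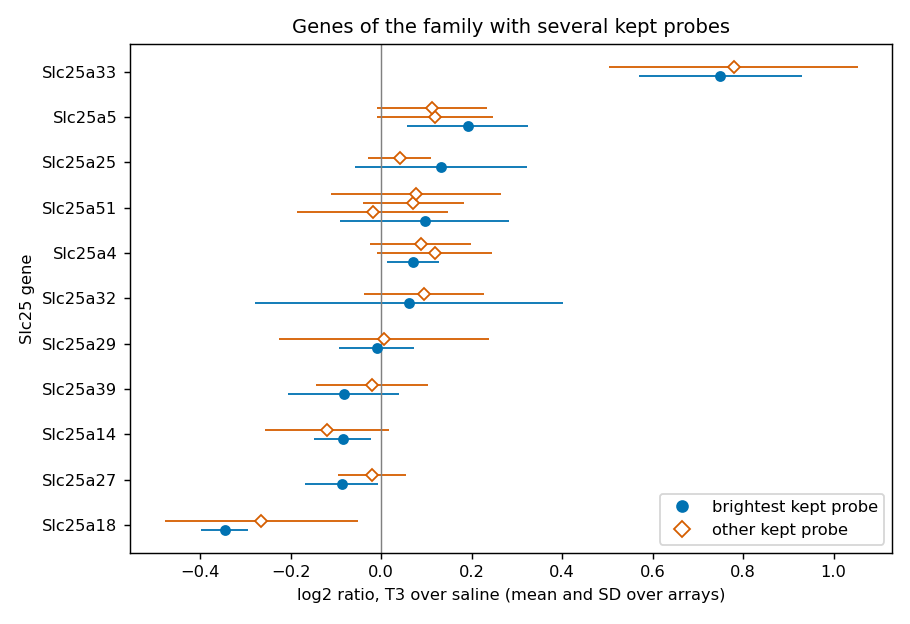
Mean log2 ratio of T3 over saline with the SD over arrays (x axis) for 11 Slc25 genes with several kept probes, with filled circles for the brightest probe and open diamonds for the others. The probes had the same sign in 9 of the 11 genes, Slc25a33 and Slc25a18 among them, and opposite signs in Slc25a29 and Slc25a51, whose means lie near 0.

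The authors' deposited table of log ratios gave a second set of values for the same probes. In the authors' deposited table Slc25a33 had ratios of 0.76, 0.93, 0.36 and 1.21, above 0 on all 4 arrays. In the authors' deposited table Slc25a15 had 0.50, 1.18, 0.37 and 0.67, also above 0 throughout. For Slc25a34 the authors' deposited table had -0.59, -0.44, 0.03 and -0.50, and for Slc25a18 it had -0.12, -0.42, 0.23 and -0.88, so array 3 was above 0 for both genes. The sign of the mean was the same in the scanner values and the authors' deposited table for 19 of the 28 members and opposite for 9. Across genes the scanner ratios and the authors' deposited table were only weakly alike on the same array (r = 0.43, 0.43, 0.19 and 0.28 for arrays 1 to 4). When limma was run on the authors' deposited table, Slc25a33 had an adjusted p of 0.338 and no member passed the threshold.

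**Figure D5:**
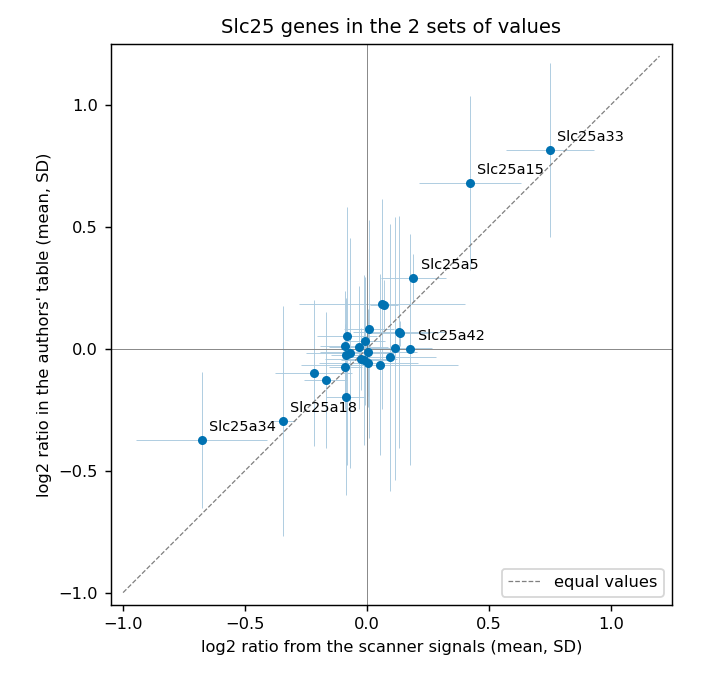
Mean log2 ratio of T3 over saline from the scanner signals (x axis) and from the authors' deposited table (y axis) for the 28 Slc25 genes, with lines for the SD over 4 arrays and a dashed line of equal values. Slc25a33 and Slc25a15 lie high in both sets and Slc25a34 and Slc25a18 low in both, while the genes near 0 scatter across the axes with wide SDs in the authors' deposited table.

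The enzymes and channels that work beside the carriers showed no call in any of 8 lists by limma. Of all genes, 0.15% were called higher and 0.0107% lower, so lists of this size would seldom hold a call. A mean above 0 was found for 51.9% of all genes and for 8 of 11 measured genes of pyruvate and citrate metabolism (median 0.11). Of these 11, 1 had an unadjusted limma p under 0.05. That gene was Pc, the pyruvate carboxylase that makes oxaloacetate, with ratios of 0.30, 0.65, 0.38 and 0.89 (mean 0.55 ± 0.27; limma adjusted p = 0.159). Of 6 genes of the carnitine system, the partners of Slc25a20, 4 had a mean above 0 (median 0.010) and 2 an unadjusted p under 0.05. Cpt1b, a carnitine palmitoyltransferase, had ratios of 0.20, 0.27, 0.19 and 0.23 (mean 0.22 ± 0.04; limma adjusted p = 0.384). In the other 6 lists no gene had an unadjusted limma p under 0.05, against 5.34% of all genes higher and 3.92% lower. The 6 enzymes of the malate-aspartate and glycerophosphate shuttles had a median of 0.055, with Gpd1 at 0.22 ± 0.48. The 7 outer membrane genes had a median of 0.052, with Vdac1 at 0.13 ± 0.22, and the 4 sideroflexins one of 0.021, with Sfxn5 at 0.15 ± 0.46. The 3 calcium transport genes had a median of 0.040, with Slc8b1 at 0.17 ± 0.36, and the 5 genes of protein translocation into the matrix one of -0.0030, with Timm17b at -0.19 ± 0.22. Of the carriers named outside the Slc25 series, Ucp2 was at 0.21 ± 0.43, and Mtch1 and Mtch2 at 0.01 ± 0.37 and 0.03 ± 0.18.

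The genes whose 4 ratios lay closest to those of Slc25a33, by Euclidean distance over the 4 arrays among all genes outside the family, were Bcar3 (0.102), Hcn2 (0.103), Stat5a (0.219), Sh2b2 (0.274) and Wfdc1 (0.274). This likeness is how they were chosen and is a description. Their adjusted limma p-values ran from 0.0519 to 0.0878. Klf9, a transcription factor known to respond to T3 directly, had ratios of 0.77, 0.59, 1.19 and 1.07 (mean 0.90 ± 0.27; limma adjusted p = 0.0517).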

How the data were processed

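The deposited scanner files held intensity values of spots and local background, not normalized, and per the file headers came from Feature Extraction 10.7.3.1 (Agilent) on a design annotated on rn4. Per the file headers, the same software had also subtracted background and balanced the dyes to give processed intensity values and their log10 ratio (red over green). The authors' deposited table held log ratios read here as log2 of T3 over saline, because 10 spike-in probes followed the scanner's log2 ratios with slopes of 0.900, -0.947, 0.922 and -0.967, changing sign with the dye. The submitters' processing notes name limma 3.18.9 for it. How it was centred is not given in the sources used here (column medians 0.0026, -0.0024, 0.0021 and 0.0030), and after this reading its arrays 3 and 4 had r = -0.51 across genes, so it served only as an alternative.

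Median spot signals were corrected with normexp (offset 50) and loess (span 0.3, control spots at weight 0) in limma 3.58.1 under R 4.3.3. Spots marked as outliers (0.946%) were dropped, and spots of a probe were averaged. Rat levels were taken after Aquantile scaling. Accessions were matched to RefSeq symbols (GRCr8), which named 16964 of 41012 probes. The 23191 kept probes were tested with lmFit and eBayes (2-sided, 3 residual and 4.35 prior degrees of freedom, Benjamini-Hochberg), checked on simulated arrays. With 4 arrays an exact sign-flip test of 1 gene cannot give a p below 0.125. All arrays lay on 1 slide, which leaves no slide or scan batch to test. The limma p-values and the intervals around the means rest only in part on a gene's own spread between the 4 pairs of rats. In eBayes the variance of each probe is drawn toward a value shared by all probes. With 4.35 prior against 3 residual degrees of freedom, the shared value weighed more than the probe's own spread.

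The members, function groups, partner lists and cell type markers were chosen with earlier results of these data known. Array values were given for called members, the 6 with the smallest p in each direction, the brightest of each function group, and those with an outlying array or probes of opposite sign. The 5 genes most like Slc25a33, the member with the smallest p, and the smallest-p gene of each partner list were also named. Alternatives were the background step, the scanner's processed signals, median centring, the authors' table, the dim probe filters, a dye term, eBayes with trend and robust, array weights, the mean of a gene's probes, and leaving out each array. Protein sequences were not used here. A further member is counted in the totals but is not reported here.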

Additional observations from a re-analysis of the deposited data

How the results depend on the processing

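Slc25a33 stayed above 0 under all 14 alternatives (0.70 to 0.84) and passed the threshold in 6 of them (limma adjusted p over all 14 from 0.0183 to 1). The number of Slc25 genes called higher was 0 with the processed signals, median centring, the authors' table, the dye term, and eBayes with trend and robust, and 0 to 1 when 1 array was left out, while the number called lower was 0 to 1 when 1 array was left out. With median centring the family median was -0.044 and that of all genes -0.023. Over all probes, 22 were called higher and 1 lower. The number higher was 0 with the processed signals, median centring and eBayes with trend and robust, 10 with the authors' table, 59 with no filter and 0 to 60 with 1 array left out. The number lower was 0 with the processed signals, median centring, the authors' table, the dye term and eBayes with trend and robust, 8 with no filter and 0 to 8 with 1 array left out. At an unadjusted limma p under 0.05 these counts of 0 compare with 1949 probes (processed signals), 131 (median centring), 1160 (eBayes with trend and robust) and 1133 (authors' table). Of 19 members followed through the alternatives, the means of 7 changed sign, all but that of Slc25a42 (0.18) lying within 0.10 of 0. Of all 28 members, 9 had the opposite sign in the authors' deposited table alone. With median centring Slc25a46 was at -0.039 and Slc25a29 at 0.20. In the authors' deposited table Slc25a42 was at -0.0028, Slc25a22 at -0.065, Slc25a20 at 0.011, Slc25a28 at 0.0052, Slc25a29 at 0.032 and Slc25a51 at -0.036. With the stricter filter Slc25a29, by a different probe, was at 0.0063. With 1 array left out, Slc25a22 ranged from -0.058 to 0.145, Slc25a46 from -0.024 to 0.057, Slc25a28 from -0.077 to 0.018 and Slc25a29 from -0.049 to 0.012. The cause of these shifts was not tested. Each array is a pair of rats and its ratio enters as 1 value, so every fit was already paired.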

Other observations

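The cell type markers, which bear on any bulk ratio, held no called gene in limma. Of all genes, 0.15% were called higher and 0.0107% lower, so lists of this size would seldom hold a call. At an unadjusted limma p under 0.05, 5.34% of all genes were higher and 3.92% lower, and 51.9% had a mean above 0. Of 10 oligodendrocyte markers 9 had a mean below 0 (median -0.22, 5 with an unadjusted limma p under 0.05, all 5 lower), and of 8 markers of hypothalamic nuclei 7 did (median -0.21, 3 with an unadjusted p under 0.05, all 3 lower). Of 6 neuronal markers 5 had a mean above 0 (median 0.08). The medians were -0.07 for 7 microglial, 0.06 for 7 endothelial and mural, 0.44 for 5 choroid plexus, 0.0096 for 8 blood and meningeal, -0.07 for 6 ependymal and tanycyte and 0.09 for 3 thalamic markers. The choroid plexus median had no steady sign, at 0.10, -0.37, 0.52 and -0.13 on arrays 1 to 4. The summed log2 level of the oligodendrocyte markers was 17.83 to 18.12 in the saline rats and 17.21 to 18 in the T3 rats. That of the blood and meningeal markers was 15.73 to 17.53 in the saline rats and 15.91 to 16.82 in the T3 rats, the highest being the saline rat of array 2. The part of cell content in the carrier ratios was not tested.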
